A study of Mus musculus with 4 samples.

Results

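The 37 genes described here act in cell division: they copy the DNA, supply its nucleotides, check and pull apart the chromosomes, or switch these genes on. They were chosen by name as a list of proliferation genes and found by matching their Ensembl identifiers in the deposited gene table, and all 37 of 41128 identifiers were found. Levels were measured by RNA sequencing in 4 libraries of liver cells, 1 per population, each from pooled RNA of 2 C57BL/6 mice. All mice were fed a model of alcoholic hepatitis, in which 40% of daily calories came from a high cholesterol fat diet eaten freely and 60% from a liquid alcohol diet delivered into the stomach, with a weekly binge. Every population therefore came from alcohol-fed mice with liver injury, and no library of healthy liver was analysed here. The populations were prepared from non-parenchymal cells depleted of leukocytes on CD45 beads, and these presorted CD45- cells gave 1 library. The other libraries came from sorting for the surface proteins Prom1 (prominin-1), CD49f (integrin alpha 6) and CD45, and were titled Prom1+CD49f+CD45- (with Prom1, without CD45), Prom1-CD49f+CD45- (without either) and Prom1+CD49f+CD45+ (with both). The sources used here give neither age nor sex of the mice.

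Dividing cells express these genes in waves. Before and during S phase, E2F transcription factors switch on the genes that load and fire replication origins and make deoxynucleotides. Later, a complex that includes FOXM1 and B-MYB switches on the genes of mitosis, many through a promoter element called CHR (cell cycle genes homology region). In quiescent cells the DREAM complex represses both groups through the same elements. Most cells of an adult liver are quiescent, and injury brings duct cells, hepatocytes, endothelium and resident or incoming blood cells into cycle to different extents.

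Promoters of the members are shown because E2F and CHR elements mark this division, by which the members are grouped below. Windows of 300 bases, 250 before and 50 after the annotated start, were given by RefSeq (GRCm38.p6) for 31 of the 37 members, and not for Aurkb, Ccna2, Foxm1, Kif20a, Mcm4 and Tpx2. The 150 bases before the start are printed 5′ to 3′ for 5 members that the results turn on, all on the minus strand. In order they lie at chr10:69352913-69353062, chr4:118437344-118437493, chr11:99024190-99024339, chr1:128359706-128359855 and chr5:30073626-30073775. Capitals mark matches on either strand to CHR (TTTGAA) or to the E2F motifs TTCGCGC or TTGGCGC, which may overlap each other.
Cdk1: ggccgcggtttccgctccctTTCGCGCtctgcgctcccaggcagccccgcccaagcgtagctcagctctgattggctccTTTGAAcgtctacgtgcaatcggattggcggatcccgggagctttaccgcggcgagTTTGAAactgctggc
Cdc20: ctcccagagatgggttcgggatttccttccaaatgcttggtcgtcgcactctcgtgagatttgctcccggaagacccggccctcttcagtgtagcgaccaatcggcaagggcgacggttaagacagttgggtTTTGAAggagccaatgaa
Top2a: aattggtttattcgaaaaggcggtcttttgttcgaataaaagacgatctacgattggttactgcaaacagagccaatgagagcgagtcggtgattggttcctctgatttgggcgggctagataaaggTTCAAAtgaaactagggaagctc
Mcm6: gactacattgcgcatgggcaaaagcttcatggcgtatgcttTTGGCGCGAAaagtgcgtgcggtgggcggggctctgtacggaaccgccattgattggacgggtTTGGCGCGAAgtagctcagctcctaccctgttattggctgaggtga
Tyms: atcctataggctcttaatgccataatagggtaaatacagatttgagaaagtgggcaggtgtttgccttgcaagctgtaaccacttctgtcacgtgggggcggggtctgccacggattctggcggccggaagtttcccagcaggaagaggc
The stretches of Cdk1, Cdc20 and Top2a carry CHR matches, those of Cdk1 and Mcm6 carry E2F matches, and that of Tyms carries neither. The RefSeq starts of Mcm6 and Tyms lie upstream of these genes as placed by GENCODE M21. Of the 5 members, Mcm6 alone had the last 20 bases of its window in none of its GENCODE transcripts.

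Over the whole windows, CHR was found in 11 of 16 members of mitosis (kinases and cyclins, checkpoint, spindle, kinetochore and cytokinesis) and in 2 of 11 members of replication (licensing, helicase, clamp and nucleotide supply). E2F motifs showed the other arrangement, in 2 of 16 members of mitosis (Ccnb1 and Cdk1) and 4 of 11 of replication, all of these MCM helicase genes (Mcm3, Mcm5, Mcm6 and Mcm7). With a longer E2F motif added, not spelled here, Cdc6 joined them, for 5 of 11 of replication and 8 of 31 members in all, against 5.60% of all genes. Of all 27025 genes with such a window, 20.2% held CHR and 4.5% an E2F motif. CHR matches of Cdk1 began at -71 and -15 from the start, that of Cdc20 at -18, and those of Top2a at -179 and -23. CCAAT, the box bound by NF-Y, was in 25 of 31 members and in 41.1% of all these genes. Both Mki67 and Top2a, counted apart as chromatin genes, held CHR. A match describes these letters only.

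**Figure D1:**
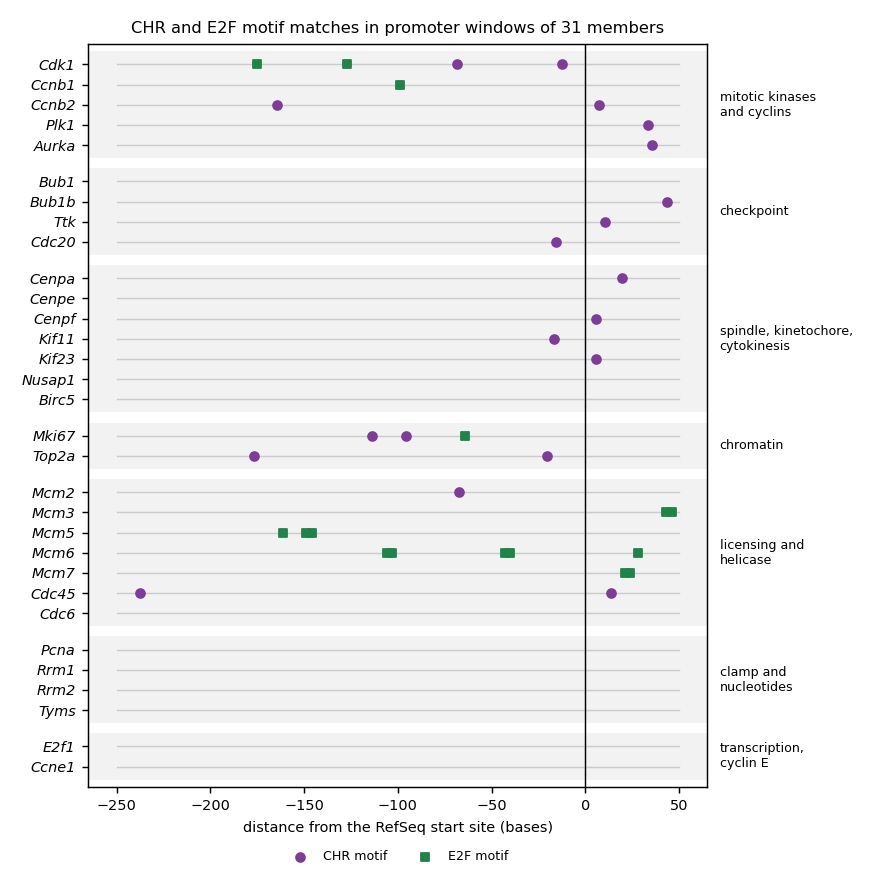
Positions of CHR (circles) and E2F (squares) motif matches in the promoter windows of 31 members, by the distance in bases of the motif's centre from the RefSeq start site; each grey line is 1 window (for Mcm7, 2 windows are drawn on 1 line). CHR matches lie mostly in the mitosis rows near the start, and E2F matches mostly in the licensing and helicase rows.

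Gene counts summed to 14670414 in the shallowest library, Prom1-CD49f+CD45-, and to 52294143 in the deepest, presorted CD45-. Levels are estimated counts as CPM after scaling by TMM (trimmed mean of M values), called scaled CPM, with exact 95% Poisson intervals where an interval is given. Ratios of scaled counts carry exact 95% binomial (Clopper-Pearson) intervals. To be called, a ratio needed an interval lying entirely outside 2-fold in that direction. With 1 library per population there is no replicate, so no test or p-value can be given, and intervals cover counting error only. Amplified reads are not independent molecules, so even that error can be larger. In the library labelled Prom1+CD49f+CD45+, Prom1 stood at 11.4 scaled CPM, the lowest of the 4, which went against its label. Ptprc, the gene of CD45, stood there at 14.5, above the 6.33 of Prom1+CD49f+CD45- and the 3.60 of Prom1-CD49f+CD45- cells, as labelled, but below the 20.97 of the presorted CD45- cells. Values in series below follow the order Prom1+CD49f+CD45-, Prom1-CD49f+CD45-, the library labelled Prom1+CD49f+CD45+, and presorted CD45-.

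All members were detected in every library, with 18 counts at the least (Ttk, in Prom1-CD49f+CD45- cells). Liver is not known to use chemosensory receptor genes, and percentile 99 of their levels was 1.40, 1.201, 2.09 and 0.135 scaled CPM. All 37 members lay above it in each library, the closest being Ttk in Prom1-CD49f+CD45- cells at 1.271. This background was uneven, since 69.3%, 27.1%, 69.4% and 12.5% of the 1509 receptor genes had a count. Its part in the ratios of low members to presorted cells was not tested. The summed level of the 37 genes was 528 (520.4 to 536) scaled CPM in Prom1+CD49f+CD45- cells, 630.0 (617 to 643) in Prom1-CD49f+CD45- cells, 1238 (1227 to 1248) in presorted cells and 1037 (1025 to 1050.2) in the library labelled Prom1+CD49f+CD45+. Presorted cells thus had the highest sum and Prom1+CD49f+CD45- cells the lowest. With library totals in place of TMM the top of this order turned, with 1116 CPM in the library labelled Prom1+CD49f+CD45+ against 1052 in presorted cells. In bulk libraries, fewer cycling cells and less RNA per cycling cell cannot be told apart.

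Of the 37 members, 27 were highest in presorted cells, 8 in the library labelled Prom1+CD49f+CD45+ (Bub1, Bub1b, Cenpe, Cenpf, Mki67, Mcm3, Mcm4 and Tyms) and 2 in Prom1-CD49f+CD45- cells (Cenpa and Pcna). For Cenpe, Mki67, Mcm3 and Mcm4 the interval of the ratio between the labelled and presorted libraries held 1, so their placement is within counting error. The same held for Birc5 and Kif23, which were highest in presorted cells. Prom1+CD49f+CD45- cells held the lowest level for 24 and Prom1-CD49f+CD45- cells for 12. The remaining member, Tyms, was lowest in presorted cells. With library totals 19 were highest in presorted cells and 14 in the library labelled Prom1+CD49f+CD45+. Prom1-CD49f+CD45- cells then held the lowest level for 19 and Prom1+CD49f+CD45- cells for 16. Without Cenpa, which differed most between the sorted CD45- gates, the sums of Prom1+CD49f+CD45- and Prom1-CD49f+CD45- cells were 523 and 522, a ratio of 1.00 (0.974 to 1.03). That equality held under TMM alone, since the sums were 592 and 504 with library totals and 511 and 575 with DESeq2 size factors.

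**Figure D2:**
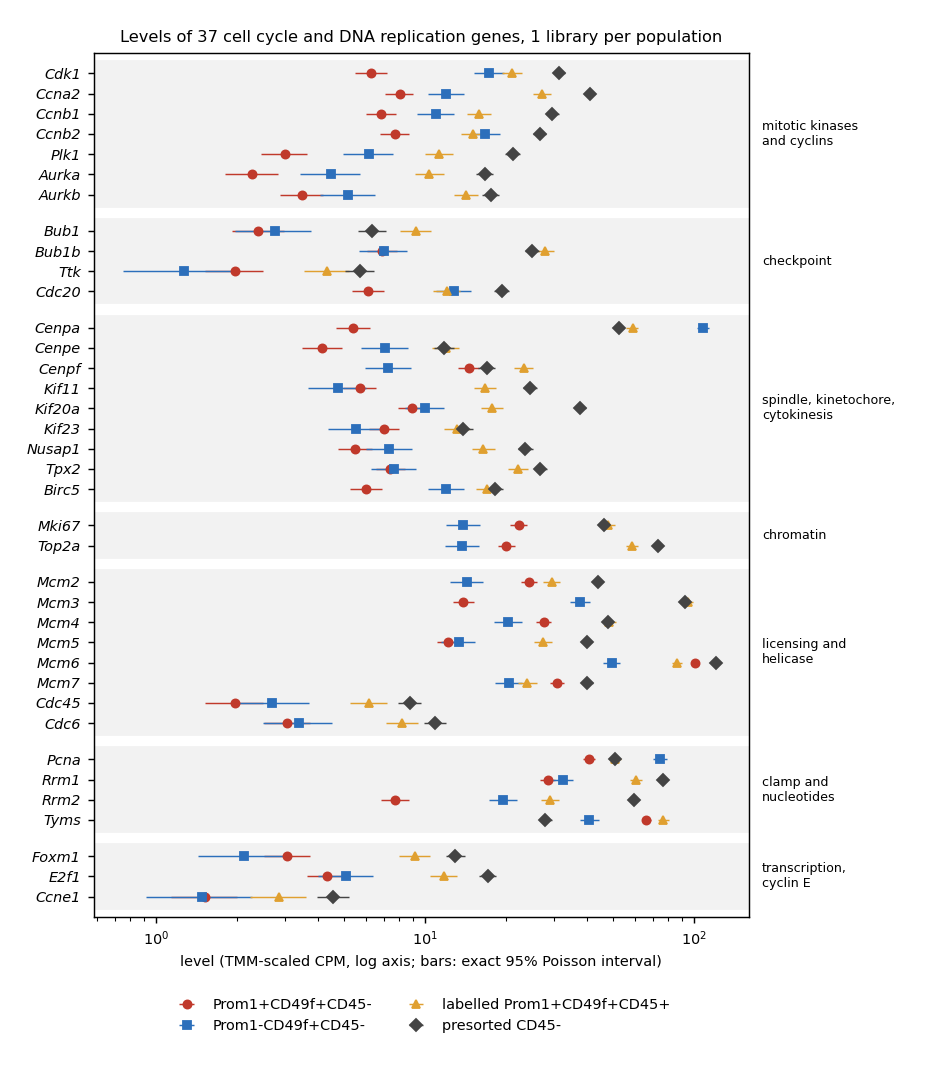
Level of each of the 37 genes (rows, by role) in each library (symbols), in TMM-scaled CPM on a log axis, with exact 95% Poisson intervals as bars. For 27 genes the presorted library (diamonds) lies farthest right (19 with library totals), and Cenpa spans the widest range.

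Against the presorted cells, Prom1+CD49f+CD45- cells were lower in 28 of 37 members and higher in 1 (Tyms), with a median log2 ratio of -1.82. Of all 21640 genes compared, 15.6% were called lower and 27.6% higher in this comparison, with a median of 0.19. Prom1-CD49f+CD45- cells were lower than presorted in 24 members and higher in none (median -1.59), where 14.1% of all genes were lower and 9.77% higher (median 0.12). In the library labelled Prom1+CD49f+CD45+ no member was called lower and 1 was called higher, again Tyms (median -0.48), against 12.1% and 23.8% of all genes (median 0.10). Scaling by library totals ended 6 of the 28 calls in Prom1+CD49f+CD45- cells (Birc5, Bub1, Ccne1, Cenpe, Rrm1 and Ttk). In Prom1-CD49f+CD45- cells, other scalings, the authors' values or removal of the length trend ended the calls of Mcm3, Mcm4, Mcm6, Rrm1, Ccnb1 or Cdc6, and 19 to 21 of the 24 calls were kept under each. Requiring 3-fold kept 19 of the 28 calls and 4 of the 24. These comparisons share the presorted library, so they are not independent of each other. Of the members in the library labelled Prom1+CD49f+CD45+, 25 had an interval wholly below 1 and 5 wholly above it.

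Mitotic kinases and cyclins were the group farthest below presorted cells in Prom1+CD49f+CD45- cells. All 7 were called lower there, and their summed level was 4.88-fold lower (4.60 to 5.18), at 37.6, 72.6, 115 and 184 scaled CPM in the 4 libraries. Cdk1 (chr10:69335146-69352938, minus strand, mm10), the kinase that drives entry into mitosis, stood at 6.30, 17.3, 21.03 and 31.4. It was lowest in the Prom1+CD49f+CD45- and highest in the presorted library, with no overlap of intervals between those 2, at 4.98-fold lower (4.32 to 5.78). Ccnb1 encodes cyclin B1, the partner of Cdk1, and its levels were 6.86, 10.9, 15.8 and 29.7. The order was the same as for Cdk1, and the ratios to presorted were 0.231 (0.2002 to 0.266), 0.369 (0.310 to 0.436) and 0.533 (0.475 to 0.597) for the 3 sorted libraries in the order given. Ccnb2, the other B-type cyclin gene, was at 7.70, 16.7, 15.03 and 26.6, where Prom1-CD49f+CD45- cells and the library labelled Prom1+CD49f+CD45+ had overlapping intervals. Pseudogenes of both cyclins, and of Pcna, are in the table and may share reads with them.

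Ccna2 (cyclin A2, which acts in S phase and at mitotic entry) followed at 8.02, 11.9, 27.2 and 40.8 scaled CPM. Against presorted it was 5.09-fold lower (4.48 to 5.80) with Prom1 and 3.42-fold lower (2.92 to 4.03) in the gate without. The largest fold in this group was that of Aurka, the centrosomal Aurora kinase gene, 7.32-fold lower (5.79 to 9.36) in Prom1+CD49f+CD45- cells. Its levels were 2.28, 4.45, 10.4 and 16.7. Plk1, a kinase of centrosome maturation and mitotic exit, was close behind at 3.01, 6.15, 11.2 and 21.1 and 7.02-fold lower (5.72 to 8.69). Aurkb, the kinase of the chromosomal passenger complex, stood at 3.47, 5.16, 14.2 and 17.5, and its ratio to presorted was 0.199 (0.162 to 0.241) in Prom1+CD49f+CD45- and 0.811 (0.713 to 0.921) in the library labelled Prom1+CD49f+CD45+. In Prom1-CD49f+CD45- cells 5 of the 7 were called lower, and Cdk1 and Ccnb2 were not, at 0.551 (0.479 to 0.631) and 0.627 (0.543 to 0.721).

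The spindle checkpoint delays chromosome separation until every kinetochore is attached. Against presorted cells, all 4 of its members here were lower in Prom1+CD49f+CD45- cells and 2 (Bub1b and Ttk) in Prom1-CD49f+CD45- cells. Bub1b, the gene of the checkpoint protein BubR1, stood at 6.92, 6.99, 27.9 and 24.9 scaled CPM. Prom1+CD49f+CD45- and Prom1-CD49f+CD45- cells overlapped at the low end, and the library labelled Prom1+CD49f+CD45+ stood at 1.12 times the presorted level, with overlapping intervals of level. Bub1, a checkpoint kinase gene, was at 2.39, 2.75, 9.23 and 6.35 and peaked in the library labelled Prom1+CD49f+CD45+, with a ratio to presorted of 1.45 (1.22 to 1.74) there. Ttk (the kinase Mps1) was the least abundant of the 4, at 1.95, 1.27, 4.31 and 5.72, and was lower by 4.496-fold (2.79 to 7.71) in Prom1-CD49f+CD45- cells, on 18 counts. Cdc20 activates the ligase that the checkpoint restrains. It stood at 6.13, 12.8, 12.0 and 19.2, 3.13-fold lower (2.69 to 3.66) in Prom1+CD49f+CD45- cells and not called in Prom1-CD49f+CD45- cells.

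Spindle, kinetochore and cytokinesis genes were called lower in 7 of 9 in Prom1+CD49f+CD45- and 4 of 9 in Prom1-CD49f+CD45- cells against presorted. Cenpa (chr5:30666777-30674830, plus strand), the histone H3 variant that marks centromeres, varied most of all 37. Its counts were 185, 1524, 1462 and 2327, and its levels 5.40, 108, 58.9 and 52.4 scaled CPM. No intervals overlapped between any pair of libraries. Cenpa was 9.70-fold lower (8.35 to 11.3) than presorted in Prom1+CD49f+CD45- cells and 2.06-fold higher (1.93 to 2.19) in Prom1-CD49f+CD45- cells. The second was not called, but it was with library totals (2.33), DESeq2 size factors (2.31), the authors' normalized values (2.62) and with the trend on transcript length removed (2.29). No exon of another gene overlaps Cenpa in GENCODE M21.

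Among the motor proteins, Kif11, which slides spindle microtubules apart, stood at 5.69, 4.73, 16.7 and 24.5 and was lower than presorted in both sorted CD45- libraries, 4.31-fold lower (3.70 to 5.05) in Prom1+CD49f+CD45- and 5.18-fold lower (4.05 to 6.74) in Prom1-CD49f+CD45- cells. Kif20a, a kinesin of cytokinesis, was at 8.90, 9.96, 17.7 and 37.6, but 29.3% of its exon bases lie opposite exons of Cdc23, so its counts are uncertain where strand was not used in counting. Kif23, a midbody kinesin, differed less, at 7.03, 5.51, 13.1 and 13.8 and ratios of 0.508 (0.436 to 0.591) and 0.398 (0.310 to 0.504), and was called in neither. Spindle assembly genes Tpx2, at 7.41, 7.63, 22.1 and 26.8, and Nusap1, at 5.49, 7.35, 16.4 and 23.6, were 3.61-fold lower (3.15 to 4.15) and 4.30-fold lower (3.67 to 5.04) in Prom1+CD49f+CD45- cells, and lower in Prom1-CD49f+CD45- cells too.

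Birc5 (survivin), of the same passenger complex as Aurkb, stood at 6.04, 11.9, 17.0 and 18.2. It was lower by 3.01-fold (2.58 to 3.52) in Prom1+CD49f+CD45- cells and at 0.657 (0.553 to 0.776) in Prom1-CD49f+CD45- cells. Cenpe, a kinetochore motor, stood at 4.14, 7.06, 11.9 and 11.8 and was called lower in Prom1+CD49f+CD45- cells, at 0.352 (0.290 to 0.425). Cenpf, the longest transcript of the members, stood at 14.5, 7.28, 23.2 and 16.9. It was among the 8 members not called in Prom1+CD49f+CD45- cells, at 0.856 (0.763 to 0.960), and lowest in Prom1-CD49f+CD45- cells.

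Mki67 encodes the proliferation antigen Ki-67, which coats mitotic chromosomes, and stood at 22.2, 13.8, 47.7 and 46.1 scaled CPM. The library labelled Prom1+CD49f+CD45+ and presorted cells overlapped, and both sorted CD45- libraries lay below them. The ratio to presorted was 0.482 (0.443 to 0.525) in Prom1+CD49f+CD45- cells, not called, and 0.300 (0.258 to 0.348) in Prom1-CD49f+CD45- cells, called lower. Top2a, the topoisomerase that untangles replicated chromosomes, was at 20.02, 13.7, 58.5 and 73.3, and was 3.66-fold lower (3.37 to 3.98) and 5.35-fold lower (4.63 to 6.22) in the same gates. For both genes Prom1-CD49f+CD45- cells were lowest, unlike the mitotic kinases and cyclins. Ratios of Prom1-CD49f+CD45- to presorted cells fell with transcript length, with a Spearman correlation of -0.33 across 13293 genes, which are not independent. With the length trend removed, Mki67 was called lower in Prom1+CD49f+CD45- cells too. The part of length in the order of these genes was not tested.

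**Figure D3:**
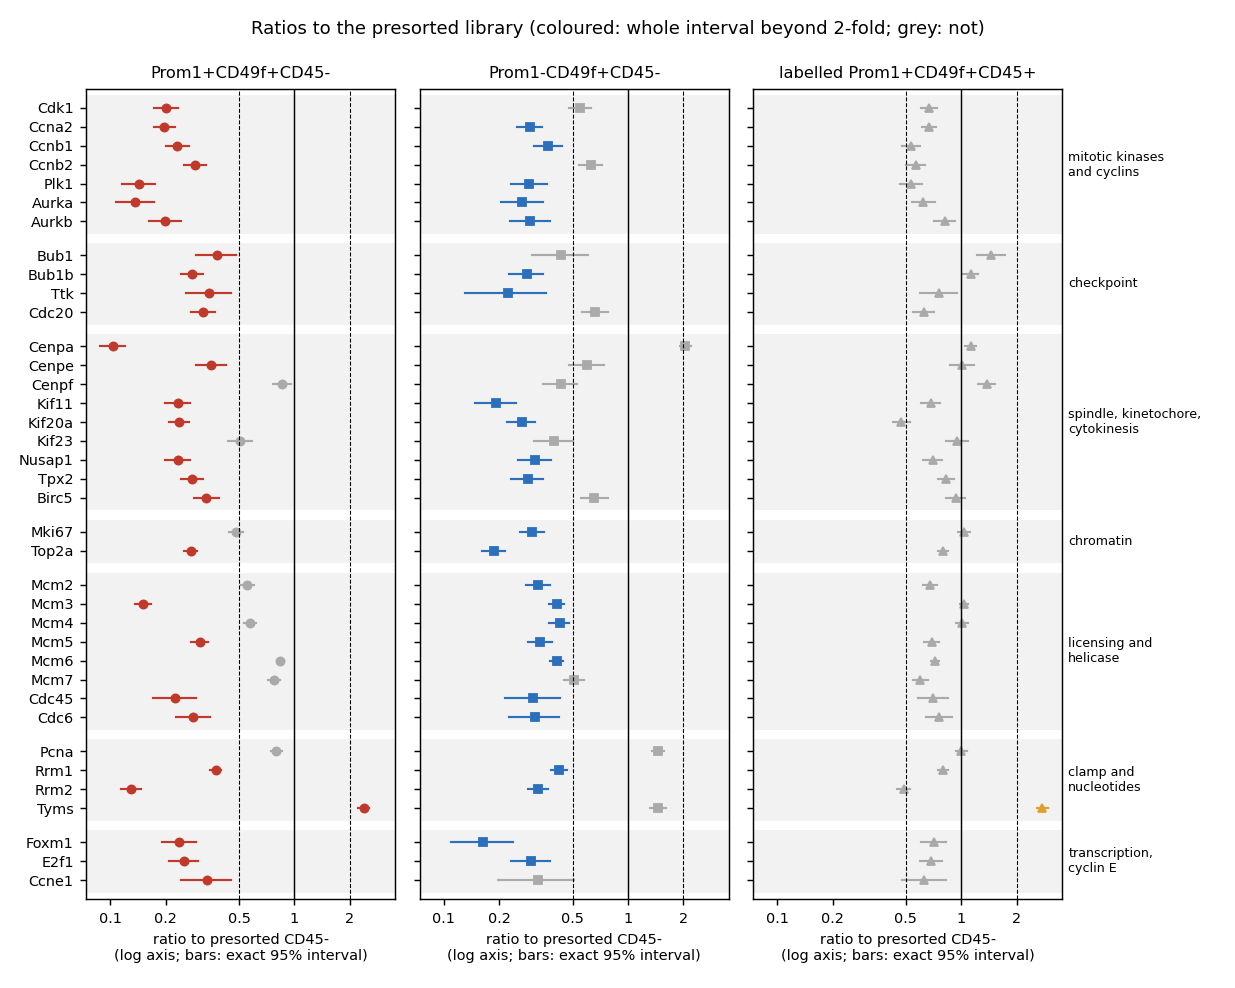
Ratio of each member to the presorted library in the 3 sorted libraries (panels), on a log axis with exact 95% binomial intervals; dashed lines mark 2-fold, and coloured points have their whole interval beyond it. Most points of the first and second panels lie left of the 0.5 line, most of the third between 0.5 and 1, and Tyms lies right of 1 in all 3.

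Replication genes lay closer to presorted cells than the genes of mitosis did in Prom1+CD49f+CD45- cells, where the 12 replication members were 1.73-fold lower (1.69 to 1.77) in sum and the 20 members of mitosis 3.89-fold lower (3.76 to 4.03). The MCM proteins, numbered from Mcm2 to Mcm7, form the ring-shaped helicase that unwinds DNA, with 1 copy of each in a ring. Their genes differed unequally between the libraries. Mcm6 (chr1:128331590-128359664, minus strand) stood at 100.5, 49.2, 86.3 and 120.3 scaled CPM, highest in presorted but nearly as high in Prom1+CD49f+CD45- cells, at 0.836 (0.800 to 0.872). Mcm7 was similar at 30.9, 20.4, 23.9 and 40.0 and 0.771 (0.714 to 0.833), though 7.25% of its exon bases lie opposite Ap4m1. Mcm3, by contrast, was at 13.8, 37.7, 95.1 and 91.9, and was lower by 6.65-fold (6.04 to 7.33) in Prom1+CD49f+CD45- cells while the library labelled Prom1+CD49f+CD45+ and presorted cells overlapped.

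Mcm2 and Mcm4 lay between, at 24.3, 14.3, 29.6 and 43.8 and 27.5, 20.3, 48.3 and 47.8. Neither was called in Prom1+CD49f+CD45- cells, at 0.554 (0.510 to 0.601) and 0.575 (0.532 to 0.622), and both were called lower in Prom1-CD49f+CD45- cells. Mcm5 was at 12.2, 13.3, 27.4 and 39.9 and called lower in both. Per kilobase of the longest transcript, the scale on which genes can be compared, the 6 ring genes ran from 11.8 (Mcm5) to 27.6 (Mcm6) scaled CPM per kb in presorted cells. In Prom1+CD49f+CD45- cells they ran from 3.60 (Mcm5) and 4.03 (Mcm3) to 23.1 (Mcm6), a wider spread for subunits of 1 complex. In Prom1-CD49f+CD45- cells they ran from 3.93 (Mcm5) to 11.3 (Mcm6), and 5 of the 6 were called lower than presorted, Mcm7 not, at 0.510 (0.449 to 0.578). These per-length levels assume reads along the whole transcript, which would not hold if the libraries were 3' tags.

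Cdc6, which loads the MCM ring on origins, was at 3.06, 3.39, 8.22 and 10.9 scaled CPM and called lower in both sorted CD45- libraries, 3.55-fold lower (2.87 to 4.42) in Prom1+CD49f+CD45- cells. Cdc45 activates the loaded ring. It stood at 1.95, 2.68, 6.16 and 8.75 and was 4.48-fold lower (3.45 to 5.89) and 3.26-fold lower (2.33 to 4.68) in the same order. For both genes the 2 sorted CD45- libraries overlapped and lay below the other two.

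The clamp and nucleotide supply genes did not all differ in 1 direction. Rrm2 is the regulatory subunit of ribonucleotide reductase, made in S phase, and stood at 7.73, 19.4, 29.1 and 59.7. It showed the order of Cdk1, with no overlap between libraries, and was lower by 7.72-fold (6.803 to 8.79) in Prom1+CD49f+CD45- and 3.07-fold lower (2.71 to 3.49) in Prom1-CD49f+CD45- cells. Rrm1, the catalytic subunit, was at 28.5, 32.4, 60.6 and 76.4 and 2.68-fold lower (2.49 to 2.88) and 2.36-fold lower (2.14 to 2.61). Pcna, the sliding clamp of DNA polymerases, which also serves DNA repair, stood at 40.6, 74.4, 50.7 and 50.9. It was highest in Prom1-CD49f+CD45- and lowest in Prom1+CD49f+CD45- cells, with the remaining libraries equal within counting error, and it was called in no comparison under TMM scaling. Per kilobase it was the most abundant member in all 4 libraries, at 26.7, 49.0, 33.4 and 33.5.

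Tyms (chr5:30058202-30073617, minus strand), the thymidylate synthase gene, was the 1 member called higher than in presorted cells. Its counts were 2273, 577, 1906 and 1239 and its levels 66.3, 40.8, 76.8 and 27.9 scaled CPM, with no overlap between any pair of libraries. It was 2.38-fold higher (2.22 to 2.55) in Prom1+CD49f+CD45- cells and 2.75-fold higher (2.56 to 2.96) in the library labelled Prom1+CD49f+CD45+. Its ratio in Prom1-CD49f+CD45- cells, 1.46 (1.32 to 1.61), was not called. Rrm2, which acts in the same supply of deoxynucleotides, lay below presorted in each of those libraries.

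The transcription factor genes Foxm1 and E2f1 and the cyclin gene Ccne1 summed to 8.87, 8.69, 23.7 and 34.6 scaled CPM, with the sorted CD45- libraries alike under TMM. Foxm1, an activator of the mitotic wave, stood at 3.06, 2.12, 9.15 and 12.9 and was lower by 4.22-fold (3.43 to 5.25) in Prom1+CD49f+CD45- and 6.11-fold lower (4.23 to 9.13) in Prom1-CD49f+CD45- cells. E2f1, an activator of the S phase wave, was at 4.29, 5.09, 11.7 and 17.1 and called lower in both, 3.98-fold lower (3.33 to 4.78) in Prom1+CD49f+CD45- cells. Ccne1 (cyclin E1, which acts at the start of S phase) was the least abundant member in presorted cells, at 1.52, 1.48, 2.86 and 4.55, and was called lower in Prom1+CD49f+CD45- cells, at 0.334 (0.241 to 0.455), and not in Prom1-CD49f+CD45- cells, at 0.326 (0.198 to 0.512).

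The counts of the 12 replication members divided by those of the 20 members of mitosis summarise this difference without any scaling of libraries. The quotient was 2.99 (2.88 to 3.10) in Prom1+CD49f+CD45- cells, 1.24 (1.18 to 1.29) in Prom1-CD49f+CD45- cells, 1.33 (1.304 to 1.35) in presorted cells and 1.48 (1.44 to 1.52) in the library labelled Prom1+CD49f+CD45+. Prom1+CD49f+CD45- cells thus stood above the other 3 libraries. Without Tyms and Cenpa, a choice made after their values were seen, it was (in the order of the other series) 2.55, 1.82, 1.52 and 1.43. Leaving out each of the 32 members in turn, the lowest value for Prom1+CD49f+CD45- cells was 2.15 (without Mcm6) and the highest for another library 2.08 (Prom1-CD49f+CD45-, without Cenpa). The members of mitosis summed to 119.6, 266, 365 and 465 scaled CPM and those of replication to 357, 328, 542 and 618.

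**Figure D4:**
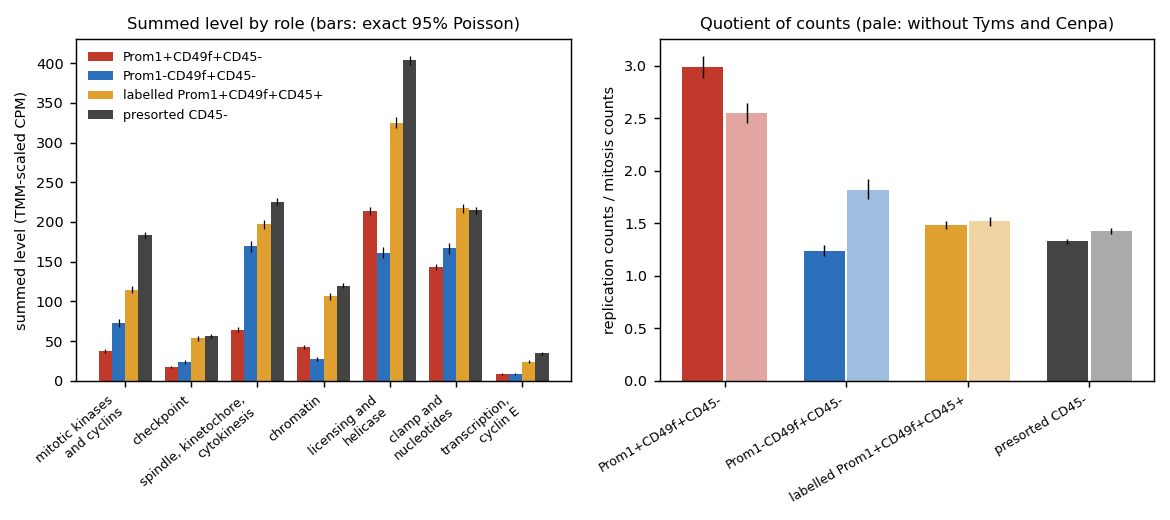
Left, summed level of the members of each role in the 4 libraries, in TMM-scaled CPM with exact 95% Poisson intervals. Right, counts of the 12 replication members over counts of the 20 members of mitosis (solid) and the same without Tyms and Cenpa (pale), with exact 95% binomial intervals; the Prom1+CD49f+CD45- library is highest in both, at 2.99 and 2.55.

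Prom1+CD49f+CD45- and Prom1-CD49f+CD45- cells differ by the surface protein Prom1 alone in their gates. Here 4 of 37 members were called lower with Prom1 and none higher, against 12.7% and 15.5% of all genes, and the median log2 ratio was -0.18 against 0.39 over all genes. The lower share of the members, 4 of 37, is near the background. Cenpa was 19.9-fold lower (17.1 to 23.4), Cdk1 2.75-fold lower (2.28 to 3.31), Mcm3 2.73-fold lower (2.41 to 3.09) and Rrm2 2.51-fold lower (2.11 to 2.99). With library totals Cdk1 and Rrm2 were no longer called and Mcm6 was called higher (2.40), and with the length trend removed Rrm2 was no longer called. DESeq2 size factors added Ccnb2 to the lower members, and the authors' values added Ccnb2, Cdc20 and Pcna.

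Below the 2-fold rule, 8 members had intervals wholly above 1 and 16 wholly below. Those above were Mcm6 at 2.04 (1.88 to 2.22), Cenpf at 1.99 (1.61 to 2.48), Mcm2 at 1.70 (1.46 to 1.99), Tyms, Mki67, Mcm7, Top2a and Mcm4. All 7 mitotic kinases and cyclins were among those below, with 0.462 (0.386 to 0.553) for Ccnb2 and 0.489 (0.364 to 0.658) for Plk1, and so were Cdc20, Birc5 and Pcna. In this comparison ratios also moved with transcript length, with a Spearman correlation of 0.33 across 13334 genes, which are not independent, and the transcript of Cenpf is 11130 bases long and that of Ccnb2 1531. Its part in these differences was examined only by removing the trend.

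**Figure D5:**
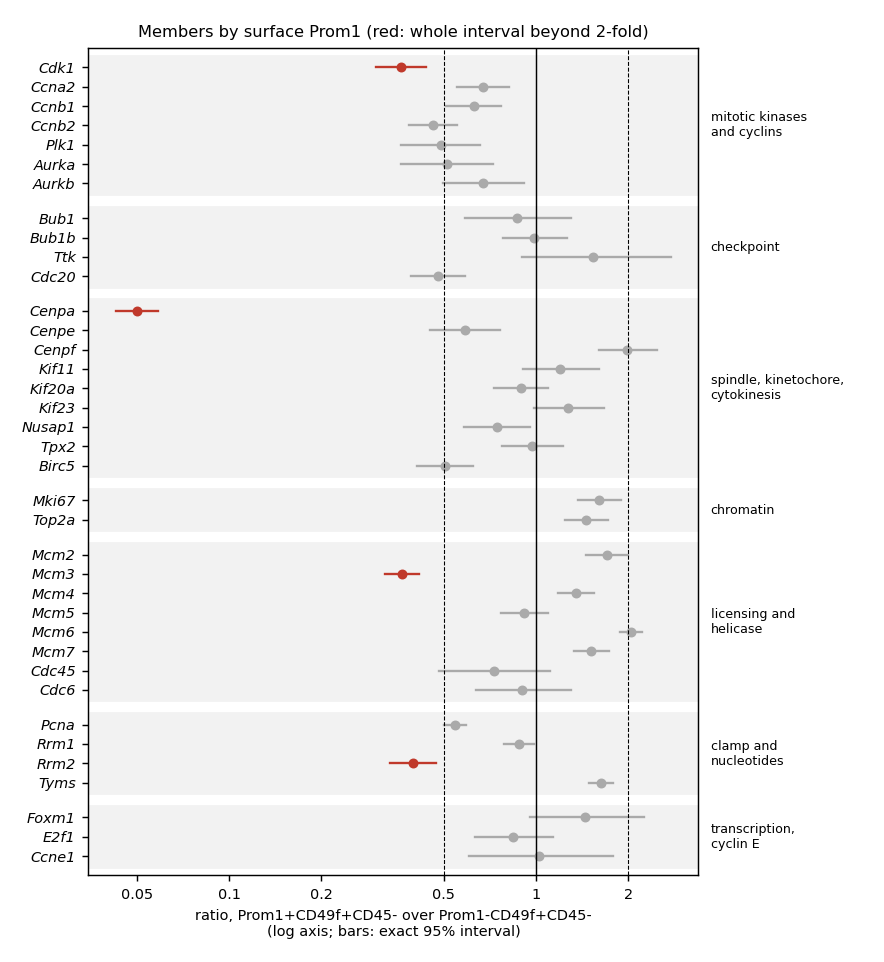
Ratio of each member in Prom1+CD49f+CD45- over Prom1-CD49f+CD45- cells, on a log axis with exact 95% binomial intervals; dashed lines mark 2-fold and red points have their whole interval beyond it. Cdk1, Cenpa, Mcm3 and Rrm2 are red, Cenpa farthest left, and most other points lie between the dashed lines.

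Against the library labelled Prom1+CD49f+CD45+, Prom1+CD49f+CD45- cells were lower in 20 of 37 members and higher in none, where 13.1% of all genes were lower and 12.5% higher. The median log2 ratio was -1.45, against -0.18 over all genes. Cenpa was 10.9-fold lower (9.36 to 12.8), Mcm3 6.87-fold lower (6.23 to 7.603), Aurka 4.55-fold lower (3.52 to 5.94) and Aurkb 4.08-fold lower (3.31 to 5.07). Bub1b, the BubR1 gene, was 4.04-fold lower (3.48 to 4.70), and Top2a 2.92-fold lower (2.67 to 3.20). Mcm6 and Mcm7 were the only members with an interval above 1, at 1.17 (1.10 to 1.23) and 1.29 (1.17 to 1.43). This comparison shares the Prom1+CD49f+CD45- library with those above, and it sets that library against one whose Prom1 level went against its label.

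Other genes of the same processes, from lists that hold none of the 37, were counted the same way. Of 60 other genes of mitosis, 37 were lower and 0 higher than presorted in Prom1+CD49f+CD45- cells (median log2 ratio -1.47), 26 and 1 in Prom1-CD49f+CD45- cells (-1.19), and 3 and 0 in the library labelled Prom1+CD49f+CD45+ (-0.33). Over all genes 15.6%, 14.1% and 12.1% were lower in these comparisons, and 27.6%, 9.77% and 23.8% higher. The most abundant were not called in Prom1+CD49f+CD45- cells: Bub3, a checkpoint gene, at a ratio of 0.633 (0.601 to 0.666), Hmgb2, a chromatin protein gene, at 0.580 (0.551 to 0.611), and the condensin gene Smc4 at 0.560 (0.522 to 0.601). Pttg1 (securin) was the 1 higher gene in Prom1-CD49f+CD45- cells, at 2.37 (2.21 to 2.54). With Prom1 against without, 6 of the 60 were lower and 3 higher, the latter being Arhgap11a at 5.01 (3.33 to 7.86), Cenpi at 3.27 (2.11 to 5.29) and Wee1, the kinase that holds Cdk1 inactive, at 3.17 (2.48 to 4.11). Bub3 was among the lower, at 0.434 (0.409 to 0.461). Both counts with Prom1 against without are below the shares over all genes in that comparison, 12.7% lower and 15.5% higher.

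Of 42 other origin and replisome genes, 9 were lower and none higher than presorted in Prom1+CD49f+CD45- cells (median -0.53), 6 and none in Prom1-CD49f+CD45- cells (-0.17), and none either way in the library labelled Prom1+CD49f+CD45+. Over all genes 15.6%, 14.1% and 12.1% were lower in these comparisons, and 27.6%, 9.77% and 23.8% higher. The lower counts in the first and second are thus near the background. The most abundant of them were near 1 or not called in Prom1+CD49f+CD45- cells, with Rpa1, of the single-strand binding complex, at 0.584 (0.558 to 0.612), the clamp loader gene Rfc1 at 0.874 (0.828 to 0.923) and the origin gene Orc3 at 0.955 (0.901 to 1.01). Pole and Pola1, catalytic subunits of replicative polymerases, were higher with Prom1 than without, at 5.82 (4.57 to 7.51) and 2.77 (2.24 to 3.45), against 3 lower genes in the list. They were the only 2 of the 42 called higher there. Both counts are below the shares of all genes in that comparison, 15.5% higher and 12.7% lower. Of 8 other nucleotide supply genes 1 was lower than presorted in Prom1+CD49f+CD45- cells, 2 in Prom1-CD49f+CD45- cells and 3 in the library labelled Prom1+CD49f+CD45+. None was higher in any of these. The shares of all genes lower were 15.6%, 14.1% and 12.1%, and of those higher 27.6%, 9.77% and 23.8%. Umps, Dut and Dck, of pyrimidine synthesis, dUTP removal and nucleoside salvage, stood at 0.684 (0.638 to 0.734), 0.525 (0.473 to 0.582) and 0.506 (0.454 to 0.565) in Prom1+CD49f+CD45- cells. In the library labelled Prom1+CD49f+CD45+ Umps was called lower, at 0.359 (0.325 to 0.397), and Dut and Dck were not called. With Prom1 against without, Cad, which starts pyrimidine synthesis, was higher at 3.29 (2.57 to 4.28) and Dut lower at 0.383 (0.339 to 0.432). Each was the only 1 of the 8 called in its direction, near the shares of all genes, 15.5% higher and 12.7% lower.

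Of 22 further genes of the E2F, RB and DREAM complexes, 9 were lower than presorted in Prom1+CD49f+CD45- cells, 9 in Prom1-CD49f+CD45- cells and none in the library labelled Prom1+CD49f+CD45+. None was higher in any of these. Over all genes 15.6%, 14.1% and 12.1% were lower in these comparisons, and 27.6%, 9.77% and 23.8% higher. Rbbp4, a histone-binding subunit, was level at 0.978 (0.949 to 1.01). Rb1, the retinoblastoma gene, which restrains E2F, was lower in Prom1+CD49f+CD45- cells at 0.323 (0.301 to 0.347) and not called in Prom1-CD49f+CD45- cells, at 0.683 (0.633 to 0.736). E2f4, the E2F of the DREAM complex, was lower in both, at 0.461 (0.431 to 0.494) and 0.260 (0.228 to 0.295).

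Cell type markers moved with the populations beside these genes, and their part in the members' levels was not tested. Summed over 10 genes each, cholangiocyte markers stood at 24392, 9338, 389 and 3893 scaled CPM, endothelial markers at 146, 7257, 14264 and 10799 and hepatocyte markers at 3766, 2891, 361 and 16907. Macrophage markers were at 91.03, 142, 202 and 1020.2. Single genes made up much of these sums. Of the cholangiocyte markers Spp1 alone was at 19684, 8188, 309 and 3103, though all 10 were called higher than presorted in Prom1+CD49f+CD45- cells (27.6% of all genes were). In those cells Alb (albumin) alone was at 3241 and Csf1r at 79.1. With Prom1 against without, 8 of 10 hepatocyte markers (median log2 ratio -2.12) and 8 of 10 macrophage markers (-2.65) were called lower. In each list 1 gene was called higher, Alb at 3241 against 1265 scaled CPM and Csf1r at 79.1 against 16.9. The share of all genes lower there was 12.7%, and higher 15.5%. The 10 neutrophil and granulocyte precursor markers were at 41.5, 108, 950.4 and 1717. Under TMM the order of both the macrophage and the neutrophil sums is that of the members' sum. With library totals it was not, since the top of the members' order turned. The endothelial sum then had the order of the members' sum, at 165, 7003, 15347 and 9177 CPM. In all but the Prom1+CD49f+CD45- library the neutrophil list was led by genes of primary granules, which promyelocytes are known to make. Mpo (myeloperoxidase) was at 7.44, 48.7, 552 and 980.3, and Elane (neutrophil elastase) at 2.60, 22.5, 181 and 318. Cxcr2, a chemokine receptor gene of the same list, was lowest in presorted cells, at 29.3, 6.29, 44.2 and 2.21, and made up most of the sum in Prom1+CD49f+CD45- cells. None of these 10 genes was at 0 in any library. Erythroid markers (12 genes, led by globin genes in presorted cells) were at 34.2, 95.4, 55.0 and 329, with Slc4a1 at 0 in both sorted CD45- libraries. The sorted libraries were led by Tfrc (29.4), Car1 (60.5) and Epor (32.9) in the order given. Lymphocyte markers were at 8.96, 8.05, 35.9 and 35.7, with Cd3e and Trac among the genes at 0 in both sorted CD45- libraries. Of these markers Ms4a1 alone was at 7.97, 1.91, 14.0 and 1.01, and Nkg7 at 0.233, 3.04, 16.8 and 30.2. The like sums of the library labelled Prom1+CD49f+CD45+ and presorted cells were thus made up differently. Fibroblast and stellate cell markers were at 291, 917, 85.6 and 821. In Prom1+CD49f+CD45- cells Rgs5 alone was at 251, and 8 of the 10 were called lower than presorted and 1 higher. Of all genes 15.6% were lower and 27.6% higher there. In Prom1-CD49f+CD45- cells Dcn alone was at 530. A list of 7 plasma cell genes stood at 486, 659, 285 and 614, nearly all of it Xbp1 and Sdc1, which other liver cells also express, with Tnfrsf17 at 0 in Prom1-CD49f+CD45- cells.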

How the data were processed

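RNA of 4 liver cell populations, 1 library each, was sequenced after polyA selection with a stranded kit, per the labels' protocols, although Quant-seq, which reads 3' ends, stands in the series title, and this was not resolved. The authors deposited estimated counts per gene and a table of CPM with 1 added to each value, whose divisor exceeded the summed gene counts (these made up 67.1% to 88.4% of it). TopHat2, Partek 3 and mm10 come from the submitters' processing notes; tool settings, the annotation and any use of strand were not given in the sources used here. For analysis, the column named only CD45 was taken as the presorted cells. Overlapping genes such as Ccna2 and Exosc9, Kif20a and Cdc23, or Mcm7 and Ap4m1, and pseudogene copies of Ccnb1, Ccnb2 and Pcna are uncertain.

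Estimated counts were rounded and scaled by TMM in edgeR 4.0.16 (R 4.3.3) over 4 libraries; 40254 of 41128 identifiers matched a symbol, and the 21640 genes reaching 10 counts in any library entered the comparisons. Positions and transcript lengths are from GENCODE M21 (mm10). Ratios and intervals used scipy 1.17.1. Calling was tested on simulated counts with counting error only, so the test does not cover amplification or differences between mice. Members and lists were chosen with earlier results of these data known. Every member is named; of each other list, the 3 genes of highest mean level and up to 2 per comparison called against most of its calls are named, with Cenpi added as 1 of 3 such genes. Alternatives were other scalings (library totals, DESeq2 size factors), count minimums, call rules, the authors' values and removal of the length trend.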

Additional observations from a re-analysis of the deposited data

How the results depend on the processing

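No paired analysis was possible because each population had 1 library. Of 185 ratios of members over 5 comparisons, 78 were called, and none of these changed direction under any alternative. Library totals in place of TMM move every log2 ratio by 0.42 for Prom1+CD49f+CD45- against presorted, 0.18 for Prom1-CD49f+CD45- against presorted, 0.34 for the library labelled Prom1+CD49f+CD45+ against presorted and 0.23 between Prom1+CD49f+CD45- and Prom1-CD49f+CD45-; DESeq2 size factors move the last by -0.17 and the second by 0.17. The 28 members lower in Prom1+CD49f+CD45- cells against presorted were 22 with library totals, all among the 28. Between Prom1+CD49f+CD45- and Prom1-CD49f+CD45- cells, library totals gave 1 higher and 2 lower member (20.9% and 10.3% of all genes), the authors' own values, where a ratio beyond 2-fold sufficed, gave 7 lower, and with DESeq2 size factors 12.5% of all genes were higher and 14.9% lower. For Prom1-CD49f+CD45- against presorted cells, library totals, DESeq2 size factors, the authors' values and removal of the length trend each gave 1 higher member, Cenpa. Calling every interval beyond 1 gave 8 higher and 16 lower members between Prom1+CD49f+CD45- and Prom1-CD49f+CD45-, 3 higher for Prom1-CD49f+CD45- against presorted, 5 higher and 25 lower for the library labelled Prom1+CD49f+CD45+ against presorted, and 2 higher and 35 lower for Prom1+CD49f+CD45- against the labelled library. Requiring 3-fold gave 1 lower in the first, 0 higher for Prom1+CD49f+CD45- against presorted, 4 lower in the second, 0 higher in the third and 6 lower in the fourth. The call rule itself sets these last counts; for the others the cause was not tested. No count minimum, a minimum of 50 and, chosen after the data were seen, TMM without the labelled library changed no call of a member. Depth is lowest in the Prom1-CD49f+CD45- library and limits its ratios most.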
